A study of Homo sapiens with 12 samples.

Results

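Transcriptomes of HEYA8 cells carrying either of 2 single-site mutants of betaglycan (BG, gene TGFBR3) were compared, S545A (HS-BG) against S534A (CS-BG), in the 6 of the series' 12 libraries that the genotype labels give to these mutants, 3 of each. The third S545A library has a title that ends in S545S, and its genotype label reads S545A. HEYA8 is an established human ovarian cancer line, labelled as high grade serous. Each mutant had been stably introduced by a lentiviral vector with a dTomato reporter and sorted for dTomato, giving 1 cell population per construct, and the cells were grown in medium with 10% serum. Both groups also keep the line's own TGFBR3. Nothing in the labels says that libraries of a group came from separate cultures, so p-values measure the spread between these libraries, which may be technical. All 15795 genes that passed a filter on low counts were tested with edgeR's quasi-likelihood test, with p-values adjusted by Benjamini-Hochberg over all of them, and log2 fold changes are S545A minus S534A.

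BG is a membrane proteoglycan that binds TGF-β superfamily ligands and presents them to the signaling receptors, and its extracellular domain can be shed and then sequester ligand. Its glycosaminoglycan (GAG) chains, heparan sulfate (HS) and chondroitin sulfate (CS), are built on serines of the extracellular domain. An alanine at either serine removes that attachment site and leaves the other. In the paper's enzyme digestions, the CS-BG mutant carried HS as well as CS chains, while HS-BG lost all modification after heparinase. The comparison asks how the transcripts of growing cells differ between these mutants, and it does not set CS chains alone against HS chains.

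Both substituted residues lie close together in the gene. In the 851-residue form of TGFBR3 (GENCODE release 29, GRCh38, minus strand of chromosome 1), serine 534 is encoded at chr1:91716673-91716675 and serine 545 at chr1:91716640-91716642, both in exon 11 of 17. The stretch of coding sequence from chr1:91716625-91716690 is shown with both serine codons in capitals, because these codons are the sole intended difference between the groups. It is the reference sequence of the human gene, and the alanine codons of the constructs were not read here.
TGFBR3 codons around serines 534 and 545: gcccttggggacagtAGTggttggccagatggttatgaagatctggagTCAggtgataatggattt

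The libraries did not sort by construct. Libraries 2 and 3 of S545A were the closest pair. No gene (0) was 2-fold apart between them in normalised counts (CPM) plus 1, a scale that damps fold differences at low counts. The chi-square between their counts was 1.40 per degree of freedom. That is still above sampling noise, so they were kept as separate libraries, and the counts of genes called and the genes the results turn on are also given with their counts summed. Library 1 of S545A lay nearest to library 1 of S534A, at 3.92, and S545A libraries 2 and 3 lay nearest, after each other, to library 3 of S534A, at 5.41 and 6.30. Library 2 of S534A stood apart from all of the others, at 62.1 to 117. Its PC1 score was 58.4 against -27.0 to 7.62 in the other libraries. On the same scale of CPM plus 1, S534A libraries 1 and 3 differed 2-fold from each other in 77 genes. In S534A library 2, 223 genes were over 2-fold higher than in those libraries, and 296 over 2-fold lower. Within S534A it was higher in 22 of 30 TGF-β target genes tested (median log2 difference 0.70), in 31 of 34 glycolysis and hypoxia genes (0.70) and in 16 of 19 cytokine genes (1.25), and lower in 45 of 47 mitosis genes (-0.71) and 29 of 32 lipid synthesis genes (-0.74). Its part in the results was not tested beyond leaving it out. Total counts ran from 16410001 to 29504297 per library.

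**Figure D1:**
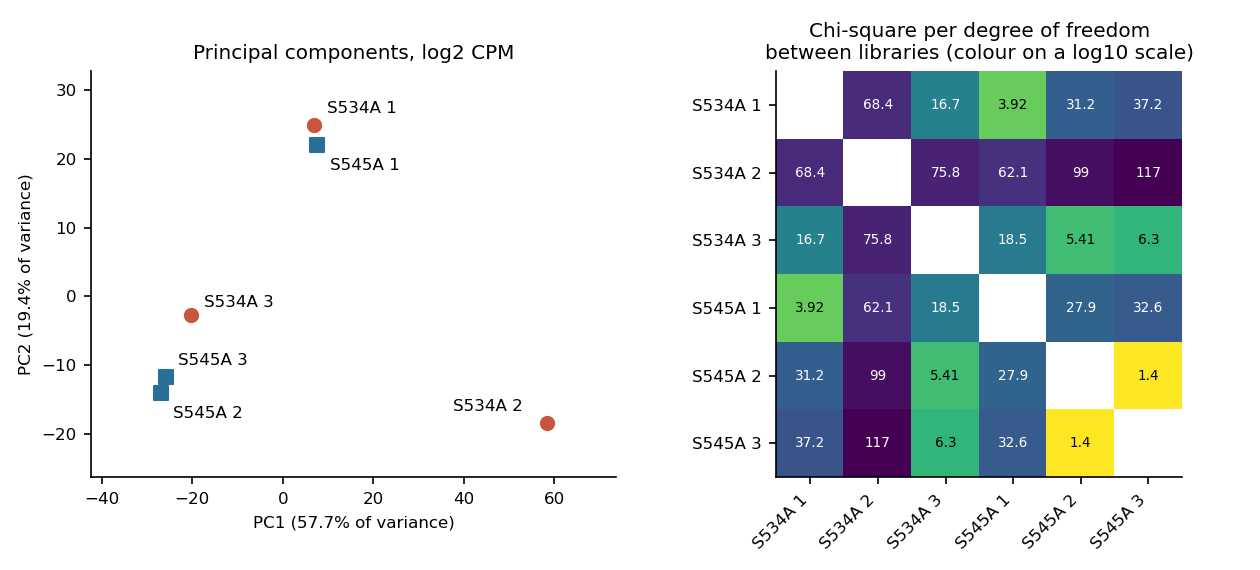
Left, the first and second principal components (unitless scores) of log2 CPM for the 3 S534A (circles) and 3 S545A (squares) libraries; right, chi-square per degree of freedom between the counts of each pair, coloured on a log10 scale. S534A library 2 sits alone at the right, and S545A libraries 2 and 3 lie together with a value of 1.40.

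No gene passed an adjusted p under 0.05 (0%, 0 of 15795). The smallest adjusted p was 0.49, for CHI3L2, and every other gene was at 0.799 or above. At an unadjusted p under 0.05, 600 genes (3.8%) were called, 264 of them (1.67%) higher in S545A and 336 (2.13%) lower. Normalised counts (CPM, scaled by TMM factors) of the groups did not overlap in 843 genes (5.34%) with S545A higher and in 757 (4.79%) with S545A lower. An exact two-sided permutation test of 3 libraries against 3 cannot give a p below 0.1, and it gave 0.1 for each of these genes. Without S534A library 2, 2.16% of 16053 genes were called higher and 1.43% lower. With S545A libraries 2 and 3 summed, the shares were 0.537% and 0.432% of 16203 genes. Genes that did not overlap between groups and had an unadjusted p under 0.05 in all of these 3 fits numbered 69 (0.437%) higher and 50 (0.317%) lower. DESeq2 called 2 genes at an adjusted p under 0.05, CHI3L2 and GDF15, as did edgeR without the filter on low counts.

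**Figure D2:**
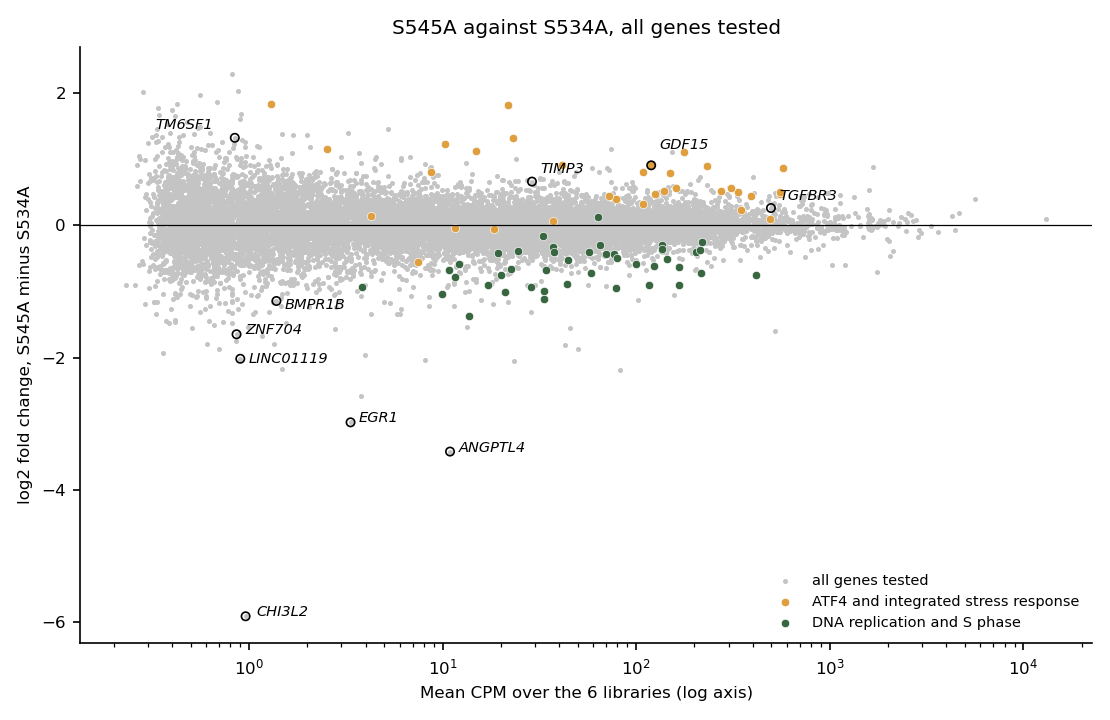
Log2 fold change (S545A minus S534A) of each of the 15795 genes tested against its mean CPM over the 6 libraries (log axis); orange points are genes of the ATF4 and integrated stress response list, green points DNA replication genes, and open rings mark named genes. Orange points lie mostly above 0 and green points below, CHI3L2 is the lowest point, and EGR1 and ANGPTL4 exceeded 4 CPM in S534A library 2 alone.

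TGFBR3, the transcript that carries the constructs, was higher in the S545A libraries. It was at 479, 416 and 460 CPM in S534A libraries 1 to 3 and at 578, 525 and 524 CPM in those of S545A (chr1:91680343-91906335, minus strand). Every S545A library was above every S534A library, and the log2 fold change was 0.26 (SE 0.10, unadjusted p = 0.0302, adjusted p = 0.799). With S545A libraries 2 and 3 summed the unadjusted p was 0.0675. The count does not tell the construct's transcript from the endogenous one. In the other libraries of the series, TGFBR3 was at 20.3, 21.4 and 260 CPM in those labelled ∆GAG-BG, and at 15.9, 259 and 259 CPM in those labelled control vector, so the levels of both groups here lay above all 6 of them, although libraries of one label there lie at both levels.

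The receptors that BG works with differed less. TGFBR2, the type II receptor that binds TGF-β first, was at 564, 560 and 498 CPM in S534A and 611, 531 and 528 CPM in S545A, a log2 fold change of 0.04 (SE 0.10) with overlapping groups. TGFBR1, the type I receptor kinase, was at 49.6, 51.0 and 50.1 against 47.9, 44.9 and 46.5 CPM, lower in every S545A library by a log2 fold change of -0.11 (SE 0.08, unadjusted p = 0.199). ENG, the related coreceptor endoglin, overlapped between the groups (-0.04, SE 0.12). BMPR1B, a type I receptor for bone morphogenetic proteins (BMPs), was the receptor with the largest difference. Its level was 1.57, 2.86 and 1.28 CPM in S534A and 0.936, 0.740 and 0.929 CPM in S545A, with no overlap and a log2 fold change of -1.14 (SE 0.34, unadjusted p = 0.0114, adjusted p = 0.799). Without S534A library 2 the log2 fold change shrank to -0.72 (unadjusted p = 0.0216), and with S545A libraries 2 and 3 summed the unadjusted p was 0.0300. Of the 11 receptors and coreceptors tested, 1 was called higher (TGFBR3) and 1 lower (BMPR1B), against 1.67% and 2.13% of all genes, with a median log2 fold change of 0.06 beside -0.00 over all genes.

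Among ligands, GDF15, a distant member of the TGF-β superfamily secreted by stressed cells, separated the groups most clearly. It was at 103, 62.3 and 83.5 CPM in S534A and 150, 159 and 159 CPM in S545A (chr19:18374731-18389176, plus strand). Every S545A library was above every S534A library, and the log2 fold change was 0.91 (SE 0.17, unadjusted p = 0.00101, adjusted p = 0.799), and 0.74 to 1.10 when any library was left out. The unadjusted p with S545A libraries 2 and 3 summed was 0.00412. In the other 6 libraries of the series GDF15 ranged more widely, from 60.5 to 311 CPM. MIR3189, a microRNA gene inside GDF15 whose reads cannot be told from those of its host, was at 0.501, 0.403 and 0.611 against 1.33, 1.13 and 1.03 CPM. The TGF-β ligand genes TGFB1 (-0.02, SE 0.11), TGFB2 (0.58, SE 0.35) and TGFB3 (-0.46, SE 0.45) overlapped between the groups. GDF15 was the one gene called among the 17 ligand and latency genes tested, against 1.67% of all genes called higher, and their median was -0.12, or 0.07 without S534A library 2.

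Downstream of the receptors, no common direction was seen. TGIF1, a corepressor of SMAD transcription factors, was at 55.9, 50.4 and 64.9 CPM in S534A and 64.7, 85.9 and 87.4 CPM in S545A, with S534A library 3 just above S545A library 1 (log2 fold change 0.48, SE 0.15, unadjusted p = 0.0142, and 0.0522 with S545A libraries 2 and 3 summed). SMAD6, an inhibitory SMAD and BMP target, was at 0.823, 2.32 and 0.672 against 0.624, 0.543 and 0.550 CPM (-1.19, SE 0.50, unadjusted p = 0.0463), a difference that S534A library 2 enlarged, since without it the log2 fold change was -0.40 (unadjusted p = 0.208). Of 30 TGF-β and SMAD3 target genes tested, 23 had a log2 fold change below 0 with a median of -0.19. Once S534A library 2 was left out, 17 were above 0 with a median of 0.06. In that fit 3 were called higher and 0 lower, against 2.16% and 1.43% of all genes. TGFBI, a TGF-β-induced matrix protein of that list, was at 354, 1775 and 213 CPM in S534A and 394, 188 and 190 CPM in S545A, with 1 S534A library far above all of the rest. The 9 BMP targets had a median of -0.54, and -0.13 without that library, with 7 of 9 below 0 in both fits. These lists held 14 SMAD and corepressor genes, 30 TGF-β targets and 9 BMP targets, with SMAD6 on both the first and the last. With all 6 libraries, their calls at an unadjusted p under 0.05 were TGIF1 and TIMP3 higher and SMAD6 lower. Over all genes, 1.67% were called higher and 2.13% lower.

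TIMP3, an inhibitor of matrix metalloproteinases and of the ADAM proteases that shed membrane proteins, was higher in the S545A cells. It was at 25.5, 15.3 and 26.6 CPM in S534A and 30.3, 35.96 and 40.2 CPM in S545A (chr22:32801701-32863043, plus strand), with no overlap and a log2 fold change of 0.66 (SE 0.22, unadjusted p = 0.0173, adjusted p = 0.799). Without S534A library 2 the log2 fold change was 0.45 (unadjusted p = 0.0138). With S545A libraries 2 and 3 summed the unadjusted p was 0.0468, and without S545A library 3 it was no longer under 0.05 (log2 fold change 0.56). TIMP3 lies inside SYN3, which is on the opposite strand and had at most 12 counts in a library. In the other libraries of the series TIMP3 ran from 27.1 to 51.8 CPM. TIMP4 was also higher in every S545A library, at 1.14, 1.28 and 1.46 against 1.48, 2.32 and 2.27 CPM (0.65, SE 0.25, unadjusted p = 0.0342). That p was 0.0603 without S534A library 2 and 0.101 with S545A libraries 2 and 3 summed, and it stayed under 0.05 in 2 of 6 fits with 1 library left out. TIMP1 (-0.40, SE 0.28), TIMP2 (0.10, SE 0.14) and RECK (-0.04, SE 0.10), a membrane-anchored protease inhibitor, overlapped.

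The proteases themselves gave few differences. ADAMTS3, a procollagen N-proteinase, was at 14.1, 11.7 and 14.4 CPM in S534A and 11.8, 9.77 and 8.84 CPM in S545A (-0.40, SE 0.15, unadjusted p = 0.0328), where S534A library 2 lay just below S545A library 1. The unadjusted p with S545A libraries 2 and 3 summed was 0.101. PRSS36, a serine protease gene, was at 0.393, 0.571 and 0.733 against 0.195, 0.197 and 0.344 CPM (-1.12, SE 0.40, unadjusted p = 0.0254, and 0.0668 without S534A library 2), all below 1 CPM. ADAMTS17, a secreted metalloproteinase of the same family as ADAMTS3, was at 1.07, 0.571 and 1.71 against 1.36, 2.02 and 2.10 CPM (0.76, SE 0.39, unadjusted p = 0.0920) and overlapped. ADAM12 (15.8, 39.4 and 14.2 against 16.5, 9.86 and 11.3 CPM), ADAMTS9 (3.93, 19.1 and 2.75 against 5.34, 2.47 and 2.48 CPM) and ADAM8 (15.8, 33.4 and 14.6 against 24.2, 17.9 and 20.5 CPM) were each highest in S534A library 2. Without that library the ADAM8 log2 fold change turned from -0.03 to 0.46 (unadjusted p = 0.0191). ADAM10 (0.08, SE 0.10) and ADAM17 (0.14, SE 0.12), the main sheddases of membrane proteins, overlapped, as did MMP14 (-0.18, SE 0.20), the membrane-type metalloproteinase. None of 7 MMP genes and none of 12 ADAM genes was called, 1 of 13 ADAMTS genes and 1 of 12 pericellular serine protease genes was called lower, against 3.8% of all genes called in either direction and 2.13% lower. MMP3, MMP23B, TMPRSS6, TMPRSS11CP and PRSS48 were too low to test, at 0.605 CPM or less in each library.

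CHI3L2, which encodes a secreted chitinase-like protein without enzyme activity, was the gene with the largest fold change. It had 81, 36 and 26 counts in S534A libraries 1 to 3 and 1, 0 and 1 in those of S545A (chr1:111200771-111243440, plus strand), that is 2.90, 1.21 and 1.59 CPM against 0.0390, 0 and 0.0344 CPM. All S534A libraries were far above all S545A libraries. Over the 3 libraries of each group, the 143 counts against 2 gave a ratio of 73.0 per total count (exact 95% interval 19.8 to 609, for counting error only), and the unadjusted p was 3.1e-05, or 9.83e-05 with S545A libraries 2 and 3 summed. Other libraries of the series held at most 2 counts, so the S534A population stands apart from every other group here, and its related gene CHI3L1 had 0 counts in all libraries. CHI3L2 overlaps DENND2D, which had at most 140 counts and lies on the opposite strand.

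**Figure D3:**
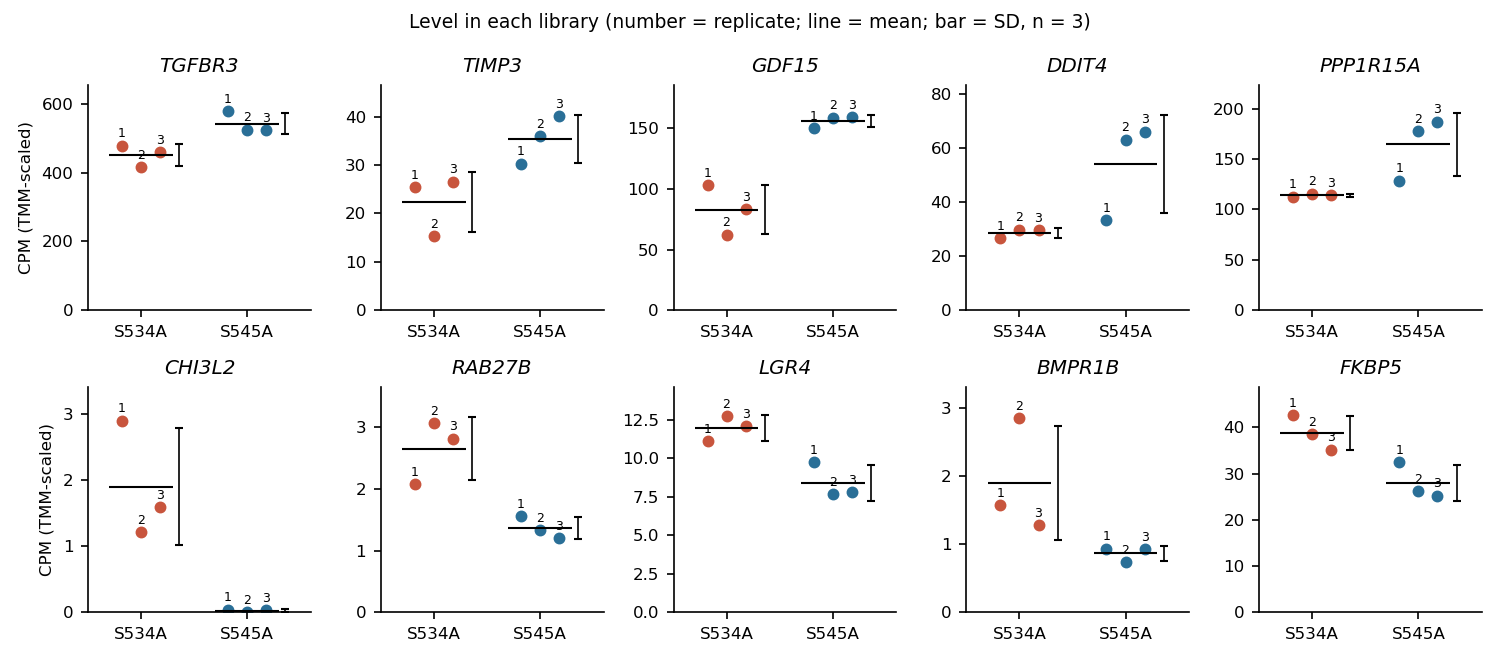
CPM (TMM-scaled) of 10 genes in each library, numbered by replicate, with the mean of the group (line) and its SD (bar, n = 3). All S545A points lie above all S534A points in the upper row and below them in the lower row; DDIT4 and PPP1R15A are lowest, within S545A, in library 1.

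Genes of the integrated stress response were higher in the S545A libraries as a group. In this response, phosphorylation of the initiation factor eIF2α raises translation of the transcription factor ATF4, which induces genes of amino acid synthesis and uptake. Of 33 genes tested, 30 had a log2 fold change above 0, with a median of 0.53 beside -0.00 over all genes. In 20 of 33 every S545A library was above every S534A library, against 5.34% of all genes, and in none was the reverse true. Of the 33, 9 were called higher at an unadjusted p under 0.05, against 1.67% of all genes, and none lower. The list and its members were chosen with earlier results of these data known. S534A library 2 was the lowest of the 6 libraries in 25 of the 33. Without it, 29 of 33 were above 0, the median was 0.32 and 18 were called, against 2.16% of all genes. With S545A libraries 2 and 3 summed, the median was 0.49 and 4 were called, against 0.537%. When all 12 libraries shared one model, 1 was called, and that fit called 338 of all genes higher, against 264 with 6 libraries. The 6 added libraries include those whose TGFBR3 level differs within a label, and their part in the count was not tested. There, the list member ASNS was at 439, 134 and 127 CPM under ∆GAG-BG and at 79.5, 213 and 221 CPM under control vector. DDIT3 was at 208, 6.92 and 7.68 CPM and at 5.12, 27.2 and 26.15 CPM, while ATF4 ranged less, from 537 to 736 CPM. Libraries of the same label thus lay far apart in ASNS and DDIT3.

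The called members act at several steps. DDIT4, an inhibitor of mTORC1, was at 26.6, 29.8 and 29.7 CPM in S534A and 33.2, 63.1 and 66.0 CPM in S545A (log2 fold change 0.92, SE 0.25, unadjusted p = 0.00662). PPP1R15A, the stress-induced subunit of the phosphatase that dephosphorylates eIF2α, was at 113, 116 and 114 against 129, 178 and 187 CPM (0.53, SE 0.14, unadjusted p = 0.00739). For both genes the S534A libraries differed little among themselves, library 2 included, and the S545A libraries were all higher, library 1 by the least. DDIT3, a proapoptotic transcription factor also known as CHOP, was at 7.30, 7.42 and 14.5 against 9.01, 45.1 and 47.5 CPM (1.82, SE 0.59, unadjusted p = 0.0171). Here S545A library 1 lay below S534A library 3, so the groups overlapped, and without S534A library 2 the unadjusted p was 0.0640. DDIT3 overlaps MARS, a well expressed gene of the opposite strand.

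Among genes of amino acid and folate metabolism, ASNS, CHAC1 and ALDH1L2 did not overlap between groups, and PSPH (0.06), SLC7A1 (0.10), CTH (0.14) and CBS (0.81) did. ASNS, asparagine synthetase, was at 141, 29.7 and 164 CPM in S534A and 213, 256 and 253 CPM in S545A (1.11, SE 0.53, unadjusted p = 0.0717, and 0.00117 without S534A library 2). CHAC1, which degrades glutathione, was at 18.7, 2.96 and 18.01 against 22.5, 41.1 and 35.2 CPM (1.33, SE 0.59, unadjusted p = 0.0569). ALDH1L2, a mitochondrial folate enzyme, was at 7.62, 2.15 and 8.85 against 12.1, 14.8 and 16.1 CPM (1.23, SE 0.45, unadjusted p = 0.0265). S534A library 2 was far below the other S534A libraries in all of these, and ASNS and CHAC1 were not called with all 6 libraries. ALDH1L2 overlaps C12orf45, which lies on the opposite strand and had at most 608 counts. SLC3A2, the heavy chain of amino acid transporters, was at 267, 160 and 252 against 290, 337 and 347 CPM (0.52, SE 0.19, unadjusted p = 0.0300), and with S545A libraries 2 and 3 summed the unadjusted p was 0.0787 for SLC3A2 and 0.0599 for ALDH1L2. ATF4 itself was at 587, 255 and 548 against 619, 646 and 662 CPM (0.47, SE 0.28, unadjusted p = 0.137). TRIB3, a pseudokinase that ATF4 induces, was at 93.8, 38.2 and 106 against 107, 158 and 151 CPM (0.81, SE 0.35, unadjusted p = 0.0552). ATF5 (-0.55, SE 0.32), VLDLR (-0.06, SE 0.12) and ATF3 (-0.04, SE 0.31) were the members below 0, and all 3 overlapped. Libraries with the same number were also compared, as a description only, since the labels do not pair them. S545A library 1 exceeded S534A library 1 in 30 of 33 genes (median log2 difference 0.14). S545A library 3 exceeded S534A library 3 in 29 of 33 (0.32). Over all genes the counts were 7930 and 7785 of 15795.

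The promoters of these genes were searched for the C/EBP-ATF element, TGATGNAA on either strand, through which ATF4 is known to act, in RefSeq promoters (GRCh38.p14, 300 bases, 250 of them before the start of the gene). A promoter was found for 27 of the 33 genes, and 5 of them (18.5%) held a match, against 3.7% of all 27305 promoters and 1.7% of the 10138 of genes tested here. The matches of CHAC1 (chr15:40953238-40953293) and ASNS (chr7:97872445-97872500), both among the genes with no overlap, are shown in capitals, 5′ to 3′ along the strand of each gene.
CHAC1 promoter: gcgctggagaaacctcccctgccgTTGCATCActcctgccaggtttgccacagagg
ASNS promoter: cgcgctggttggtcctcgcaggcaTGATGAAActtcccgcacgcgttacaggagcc
The ASNS match starts at -68 from the start of the gene and the CHAC1 match, on the opposite strand, at -209. The other matches were in SLC3A2, SLC7A1 and ATF3, of which SLC7A1, a cationic amino acid transporter (0.10, SE 0.13), and ATF3 overlapped between the groups. A match is a description of the sequence only. The list was drawn from genes of this response, on which ATF4 acts, so the shares with a match describe the list and not the difference between the groups.

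Chaperones of the endoplasmic reticulum gave no call. HSPA5, the reticulum's main Hsp70 chaperone, was at 1257, 289 and 1998 CPM in S534A and 1281, 2613 and 2645 CPM in S545A (0.88, SE 0.61, unadjusted p = 0.191). HERPUD1, a component of reticulum-associated degradation, was at 90.8, 27.9 and 172 against 102, 265 and 258 CPM (1.11, unadjusted p = 0.115). In both genes library 2 was the lowest of S534A, and library 1 of S545A lay close to library 1 of S534A. Of 24 genes tested on this list, 21 were above 0 with a median of 0.27, none was called higher against 1.67% of all genes, and 1 (P4HB) did not overlap, against 5.34% of all genes. S534A library 2 was lowest in 19 of the 24, and without it the median was 0.10.

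DNA replication genes were lowest in S545A libraries 2 and 3 and mostly highest in S534A library 2, in 33 of 43. Of these 43 genes tested, 42 had a log2 fold change below 0, with a median of -0.61, and 22 were called lower at an unadjusted p under 0.05, against 2.13% of all genes. In 1 gene, TK1, did the groups not overlap, against 4.79% of all genes. TK1, thymidine kinase, was at 153, 160 and 144 CPM in S534A and 137, 112 and 107 CPM in S545A (-0.36, SE 0.12, unadjusted p = 0.0172). The count of 22 fell to 1 without S534A library 2 (against 1.43% of all genes), to 0 without S545A library 2 or without S545A library 3, and to 0 with these libraries summed (against 0.432%). It was 42 without S545A library 1, where 988 of all genes were called lower, against 336 with all 6 libraries. The median stayed below 0 in each of these fits, at -0.44 without S534A library 2 and -0.45 with S545A libraries 2 and 3 summed.

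The values of single members show the same split among libraries. PCNA, the sliding clamp of DNA polymerases, was at 189, 314 and 146 CPM in S534A and 161, 93.8 and 92.4 CPM in S545A (-0.91, SE 0.32, unadjusted p = 0.0250). MCM2, a subunit of the replicative helicase, was at 264, 246 and 183 against 248, 134 and 142 CPM (-0.41, SE 0.26, unadjusted p = 0.155). CCNE2, a cyclin of S phase entry, was at 14.6, 34.4 and 10.6 against 11.2, 5.82 and 6.02 CPM (-1.38, SE 0.47, unadjusted p = 0.0200). In each of these, S545A library 1 lay within the S534A range and S545A libraries 2 and 3 below it. CCNE2 overlaps INTS8 and NDUFAF6, and MCM2 overlaps TPRA1, all well counted genes of the opposite strand. E2F1, a transcription factor of S phase genes, was at 55.6, 71.8 and 43.7 against 46.3, 22.5 and 24.01 CPM (-0.88, SE 0.31, unadjusted p = 0.0216), and RRM2, a ribonucleotide reductase subunit, at 239, 369 and 204 against 209, 139 and 144 CPM (-0.72, SE 0.25, unadjusted p = 0.0222). Outside the comparison, E2F1 also differed within a label, at 16.2, 55.0 and 55.9 CPM under ∆GAG-BG and 51.65, 32.9 and 31.05 CPM under control vector. CDT1, a licensing factor, was the one member above 0 (0.13, SE 0.16). Between libraries with the same number, which the labels do not pair, S545A was lower in 39 of 43 genes for library 1 (median log2 difference -0.17). It was lower in 42 for library 2 (-0.97) and in 42 for library 3 (-0.48). Over all 15795 genes it was lower in 7865, 7935 and 8010.

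Promoters of the replication genes were searched for E2F sites, written TTTGGCGC, TTTCCCGC, TTTCGCGC or TTTGCCGC on either strand, where a site and its reverse complement can overlap. Of the 36 genes with a promoter, 22 (61.1%) held a match, against 3.3% of all promoters and 5.4% of those of genes tested. In the stress response list none of the 27 promoters held one, and no replication promoter held the C/EBP-ATF element. The list was drawn from S phase genes, on which E2F factors act, so these shares describe the lists and not the difference between the groups. Genes that were not called, among them MCM7 and CDT1, also held a match. Matches of E2F1 (chr20:33686386-33686442), PCNA (chr20:5126650-5126705) and POLA2 (chr11:65261885-65261940), 3 of the 22 genes called, are shown in capitals, 5′ to 3′ along the strand of each gene.
E2F1 promoter: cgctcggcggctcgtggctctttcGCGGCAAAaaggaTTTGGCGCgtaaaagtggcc
PCNA promoter: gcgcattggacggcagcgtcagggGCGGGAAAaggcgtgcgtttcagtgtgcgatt
POLA2 promoter: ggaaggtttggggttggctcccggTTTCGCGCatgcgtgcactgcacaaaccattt
POLA2, the B subunit of DNA polymerase α, was at 51.6, 61.1 and 44.9 CPM in S534A and 47.1, 31.5 and 31.6 CPM in S545A (-0.52, unadjusted p = 0.0280).

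**Figure D4:**
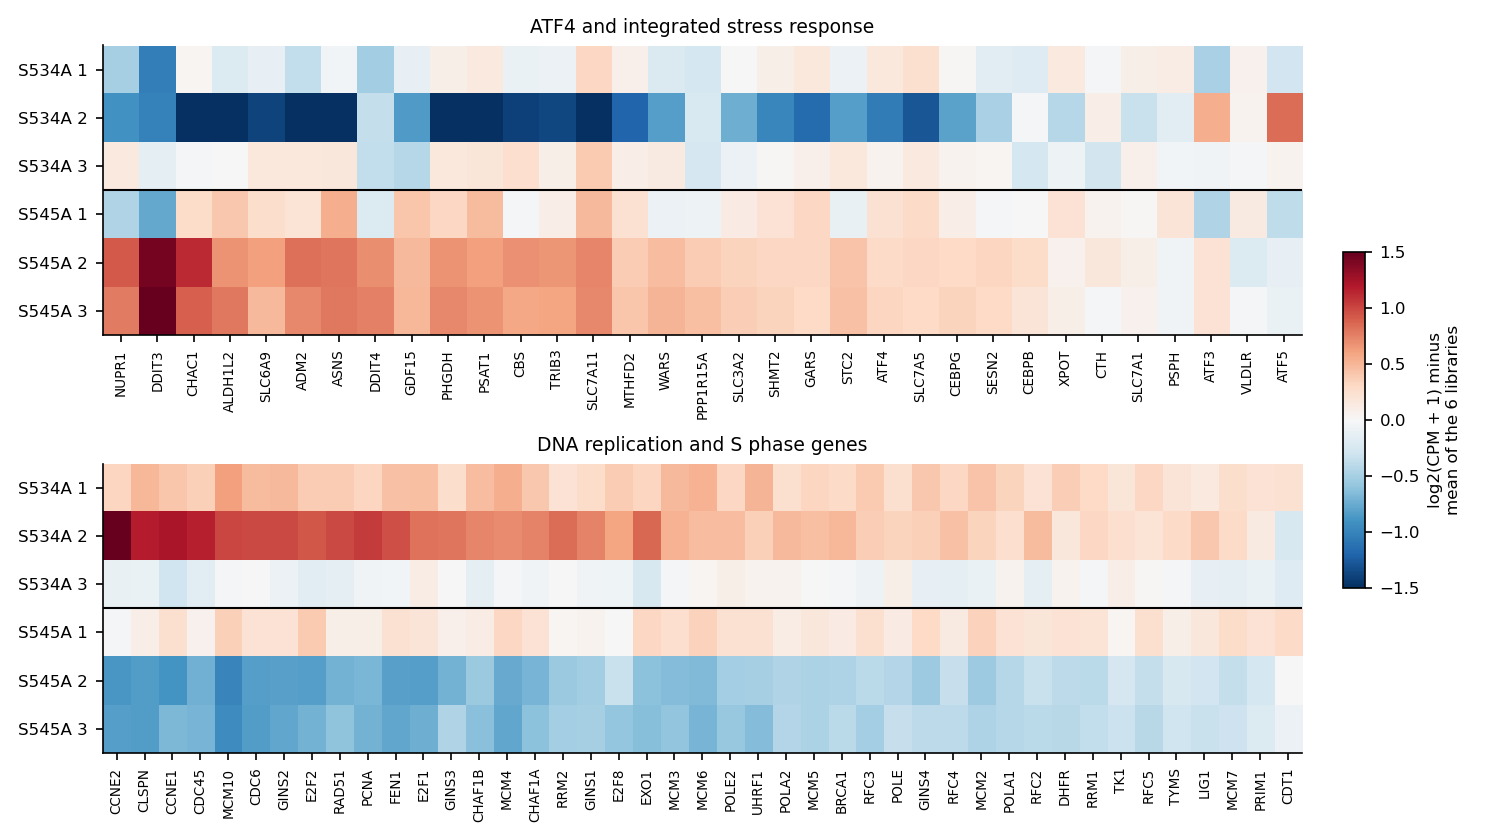
Each column is a gene tested and each row a library; colour gives log2(CPM + 1) minus the gene's mean over the 6 libraries, with colour limits at 1.5 either way, and the black line parts S534A from S545A. In the stress response list (top, 33 genes) S534A library 2 is lowest in 25 genes; in the replication list (bottom, 43 genes) S534A library 2 is highest in 33 genes and S545A library 2 or 3 is lowest in 42.

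**Figure D5:**
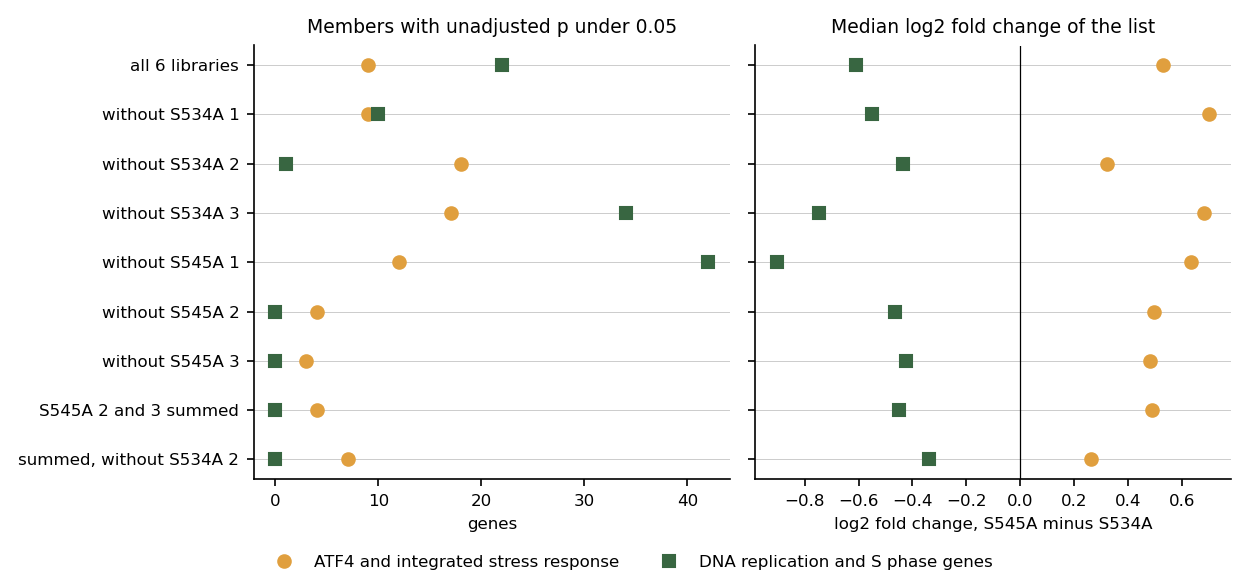
Number of members with an unadjusted p under 0.05 (left, genes) and median log2 fold change (right, S545A minus S534A) of the stress response list (circles) and the replication list (squares), with all 6 libraries, with each library left out, and with S545A libraries 2 and 3 summed. Both medians keep their sign throughout. The replication count runs from 0 to 42 and the stress response count from 3 to 18. Over all genes, those called lower run from 70 to 988 and those called higher from 77 to 898.

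Apart from these lists, the genes that met the criterion of no overlap and an unadjusted p under 0.05 in all 3 fits came from varied functions. Among those higher in S545A, HSD11B1, which turns cortisone into cortisol, was at 10.9, 8.93 and 10.1 CPM in S534A and 13.5, 16.2 and 14.96 CPM in S545A (0.58, SE 0.13, unadjusted p = 0.00293). ARHGEF2, a microtubule-associated protein, was at 209, 186 and 223 against 252, 314 and 314 CPM (0.51, SE 0.12, unadjusted p = 0.00400). ZNF397, a zinc finger gene, was at 8.48, 8.60 and 9.22 against 12.6, 12.1 and 12 CPM (0.48, SE 0.11, unadjusted p = 0.00312), with little spread within either group. PPARGC1A, a coactivator of mitochondrial biogenesis, was at 0.715, 0.504 and 0.489 against 1.29, 1.08 and 1.10 CPM (1.00, SE 0.26, unadjusted p = 0.00586). COL4A3, a basement membrane collagen chain, was at 0.572, 0.537 and 0.366 against 0.858, 1.48 and 1.14 CPM (1.18, SE 0.31, unadjusted p = 0.00633). SEMA5A, a semaphorin, was at 1.86, 1.85 and 2.08 against 2.61, 3.65 and 4.16 CPM (0.86, SE 0.22). ZNF581, EIF1B, TM6SF1 and UGDH-AS1 were also higher, with log2 fold changes of 0.68, 0.34, 1.33 and 0.78. TM6SF1, UGDH-AS1 and ZNF397 overlap well counted genes of the opposite strand (RP11-382A20.3, UGDH and ZSCAN30). HSD11B1 and COL4A3 also overlap genes of the opposite strand (RP1-28O10.1 and AC097662.2), with at most 164 and 59 counts. The counting's use of strand is not stated.

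Among the genes lower in S545A, RAB27B, a GTPase of vesicle secretion, was at 2.07, 3.06 and 2.81 CPM in S534A and 1.56, 1.33 and 1.204 CPM in S545A (-0.95, SE 0.23, unadjusted p = 0.00410). LGR4, a receptor for R-spondins that strengthens Wnt signaling, was at 11.1, 12.7 and 12.1 against 9.75, 7.69 and 7.81 CPM (-0.51, SE 0.14, unadjusted p = 0.00837). FKBP5, a cochaperone of the glucocorticoid receptor, was at 42.6, 38.6 and 35.2 against 32.5, 26.2 and 25.2 CPM (-0.47, SE 0.13, unadjusted p = 0.00796). GPD2, the mitochondrial glycerol phosphate dehydrogenase, was at 67.7, 69.5 and 61.6 against 55.6, 42.0 and 46.9 CPM (-0.46, SE 0.12, unadjusted p = 0.00644). SPC25, a kinetochore subunit, was at 28.9, 30.2 and 26.4 against 24.2, 20.9 and 20.3 CPM (-0.39, SE 0.11, unadjusted p = 0.00908). ZNF704 was at 1.11, 1.85 and 0.977 against 0.585, 0.247 and 0.413 CPM (-1.65, SE 0.39, unadjusted p = 0.00355), and LINC01119, a long noncoding RNA, at 1.00, 0.840 and 2.56 against 0.195, 0.296 and 0.516 CPM (-2.02, SE 0.56). CASP8AP2, BRICD5, GABBR2, CCDC40, HMGN3 and EMC3-AS1 were lower as well, by log2 fold changes of -0.39, -0.90, -0.46, -1.47, -0.42 and -0.85. BRICD5 overlaps MLST8 and EMC3-AS1 overlaps EMC3, both well counted genes of the opposite strand. None of the genes of these 2 groups passed adjustment over all genes.

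Genes that make GAG chains gave no call. The counts in this paragraph stand against 1.67% of all genes called higher and 2.13% lower. Of 19 genes of the linker and HS enzymes and 14 of CS synthesis, none was called, with medians of -0.14 and -0.05. Among 18 cell surface and matrix proteoglycans the one call was TGFBR3 itself. Wnt targets gave 1 call in 9, LEF1, a transcription factor of the pathway (3.86, 5.27 and 2.504 against 2.96, 1.68 and 1.24 CPM, log2 fold change -1.00, unadjusted p = 0.0339). Its unadjusted p was 0.116 without S534A library 2 and stayed under 0.05 in 2 of 6 fits with 1 library left out. FGF and ERK feedback genes gave 2 in 21. PHLDA1 was higher in every S545A library, at 241, 224 and 214 against 275, 274 and 278 CPM (0.29, SE 0.09, unadjusted p = 0.0131). EGR1, an immediate early gene, was at 1.04, 16.4 and 0.366 against 1.17, 0.444 and 0.653 CPM, and its log2 fold change of -2.98 became 0.02 without S534A library 2. Among 19 AP-1 and immediate early genes the calls were EGR1 and ZFP36 (0.31, SE 0.12, unadjusted p = 0.0332), and 12 of 19 were above 0 (median 0.05). Without S534A library 2, 17 of 19 were above 0 (0.18), and 4 were called higher and 0 lower, against 2.16% and 1.43% of all genes. LAMB3, a laminin chain, was at 696, 697 and 739 against 781, 928 and 934 CPM (0.31, SE 0.10, unadjusted p = 0.0193), the one call among 28 laminin and matricellular genes. Collagen chains gave COL4A3 higher and COL16A1 lower (-1.18, SE 0.41, unadjusted p = 0.0226) of 20. Without S534A library 2, COL16A1 was at -0.61 (unadjusted p = 0.0780). With S545A libraries 2 and 3 summed, LEF1 (0.0885), PHLDA1 (0.0517), ZFP36 (0.0873), LAMB3 (0.0839) and COL16A1 (0.0617) were no longer under an unadjusted p of 0.05. Integrin subunits (14) and genes of epithelial to mesenchymal transition (19) gave none.

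In the lists of stress and metabolism outside the response above, few members were called, beside 1.67% of all genes called higher and 2.13% lower. All 31 proteasome subunits tested were below 0 with a median of -0.17 and none called, and 26 of 31 were below 0 without S534A library 2 (-0.09). Of 38 nuclear respiratory chain subunits 35 were below 0 with a median of -0.09, and 27 without S534A library 2 (-0.03). Between libraries with the same number, which the labels do not pair, S545A was lower in 20 of the 38 for library 1. It was lower in 35 for library 2 and in 19 for library 3. Heat shock genes were below 0 in 15 of 17 (median -0.36), and 2 were called, HSPA1A, the inducible Hsp70 (20.4, 31.0 and 13.2 against 16.5, 6.95 and 6.22 CPM, -1.13, unadjusted p = 0.0348), and DNAJA1, its cochaperone (-0.61, unadjusted p = 0.0465). Neither was called without S534A library 2 (median of the list -0.22) or with S545A libraries 2 and 3 summed (-0.27). Of 34 glycolysis and hypoxia genes 30 were below 0 (-0.28), and 17 without S534A library 2 (-0.00). ANGPTL4, a secreted lipase inhibitor on that list, was at 2.54, 56.5 and 0.977 against 3.51, 0.789 and 1.27 CPM. The 3 calls there were DDIT4, PFKFB3 (-0.29, SE 0.12) and ANGPTL4. Without S534A library 2 the unadjusted p of PFKFB3 was 0.0848 and that of ANGPTL4 0.971. Mitosis genes were above 0 in 32 of 47 (0.11), with SPC25 called lower. Without S534A library 2, 43 of 47 were below 0 (-0.10) and 6 were called lower, against 1.43% of all genes. Lipid synthesis genes were above 0 in 23 of 32, and below 0 in 25 of 32 without that library. G1 cyclins and inhibitors gave 1 call in 12, CCND3 (-0.54, SE 0.18), whose unadjusted p of 0.0210 became 0.0630 without S534A library 2. Cytokines (19 genes, median -0.35), interferon-stimulated genes (27, -0.07), HLA class I presentation (14, -0.17), NRF2 targets (21, -0.13), metallothioneins (6, 0.38) and ribosomal proteins (74, -0.02) gave no call. Without S534A library 2 the medians were 0.22 for cytokines (18 of 19 above 0, 2 called higher), -0.01 for interferon-stimulated genes and -0.00 for HLA class I presentation. They were -0.03 for NRF2 targets (1 called higher), 0.26 for metallothioneins and 0.07 for ribosomal proteins (68 of 74 above 0, 2 called higher). The share of all genes called higher in that fit was 2.16%.

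Markers of the line were read in every library. The keratins KRT7, KRT8 and KRT18 and PAX8, a Müllerian transcription factor, were expressed, PAX8 at 195 to 276 CPM. MUC16, the CA125 antigen, and CDH1, E-cadherin, had 0 counts, and WT1 was at 3.44 to 8.43 CPM. EPCAM was at 0.370 to 1.59 CPM and KRT19 at 0.234 to 0.794 CPM. FOLR1, SOX17, CLDN3 and WFDC2 were at 0.305 CPM or less in each library. Of 15 markers of this type 9 were tested and none was called. The summed level of the type was 2350 to 2987 CPM in S534A and 2400 to 2981 CPM in S545A. None of the leukocyte markers could be tested, and their summed level was 0.122 to 2.55 CPM in S534A and 0.413 to 0.624 CPM in S545A, with CD3E, CD3D and MS4A1 at 0 and the highest sum in S534A library 2. Of the endothelial markers 3 of 7 were tested, led by CDH5, VE-cadherin, at 170 to 434 CPM, with a summed level of 177 to 424 CPM in S534A and 302 to 451 CPM in S545A. Of the fibroblast and mural markers 5 of 10 were tested, led by FAP at 22.9 to 26.4 CPM, and DCN and LUM were at 0. Their summed level was 51.7 to 62.9 CPM in S534A and 53.8 to 57.6 CPM in S545A. The part of other cell types in the results was not tested. By chromosome, the median log2 fold change lay between -0.03 and 0.03 on each chromosome with more than 100 genes tested.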

How the data were processed

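The authors deposited one table of raw read counts per gene for the 12 libraries (paired reads of 150 bp). The submitters' processing notes name FastQC, Trim Galore 0.4.5, STAR 2.4, SAMtools 1.2 and featureCounts, with a mouse build. The table's gene symbols are human: GENCODE release 29 (GRCh38) holds 36113 of the 56269, 33622 of them at identical coordinates. The annotation release and strand setting are not given in the sources used here. All 37 mitochondrial genes are at 0.

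From the deposited counts of the 6 libraries, genes were kept by filterByExpr with a minimum count of 10 and scaled by TMM, and the quasi-likelihood test of edgeR 4.0.16 was run in its robust form (R 4.3.3, 4 residual degrees of freedom) with Benjamini-Hochberg adjustment. The biological coefficient of variation was 0.176, and 0.124 without S534A library 2. The fit was tested on simulated data. The simulation gave all libraries 1 common spread, with no library set apart and no near-identical pair, so it does not cover these features of the data. A count of 3, the most that a count of 0 allows, is 0.102 to 0.183 CPM, for counting error only. CPM of libraries outside the comparison are on the scale of all 12 libraries, 0.590% to 0.654% lower.

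The members and the 40 gene lists were chosen with earlier results of these data known. Named were genes the study names, up to 12 by p and 8 by fold in each direction among genes with no overlap, an unadjusted p under 0.05 in all 3 fits and a mean of 1 CPM or more, and up to 4 called members of each list. ATF4, ASNS, CHAC1, TRIB3, CEBPB, ALDH1L2, SLC3A2, SESN2, CCNE2, MCM2, PCNA, BRCA1, RRM2, and other list members given with values, were chosen after their values were seen. The alternatives were DESeq2 1.42.0, limma 3.58.1 (voom, and quantile-normalized log2(CPM + 1)), other scalings and filters, all 12 libraries, a replicate block, and libraries left out or summed.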

Additional observations from a re-analysis of the deposited data

How the results depend on the processing

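The labels give no shared batch or day to replicate numbers, and the deviations of libraries with the same number correlated at 0.216, -0.235 and 0.421, so the numbers were not taken as pairs. With the replicate block, 259 genes were higher and 341 lower at an unadjusted p under 0.05, of which 190 and 232 were shared with the fit without it, the replication list had 33 members called and ADAM8 was at 0.0725 (log2 fold change).

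DESeq2 and the fit with no filter on low counts each called 2 genes at an adjusted p under 0.05. At an unadjusted p under 0.05, the 600 genes became 1197 with no filter (523 higher, 674 lower), 157 with S545A libraries 2 and 3 summed (87 and 70), 199 when S534A library 2 was also left out (127 and 72), and 150 to 1847 with 1 library left out (77 to 898 higher, 73 to 988 lower). The lowest counts came without S545A library 3 (150) and 2 (166), and the highest without S534A library 3 (1847) and S545A library 1 (1589). The 1600 genes with no overlap between groups became 2121 to 5884 with 1 library left out.

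The stress response list had 9 members called, 1 with all 12 libraries in one model and 4 with S545A libraries 2 and 3 summed. With 1 library left out it had 3 to 18 (18 without S534A library 2, 17 without S534A library 3, 4 without S545A library 2, 3 without S545A library 3). Over all genes, those called higher numbered 264, then 338 with all 12 libraries and 87 with the libraries summed. Without S534A library 2 or 3 they numbered 347 and 898, and without S545A library 2 or 3, 90 and 77. The replication list had 22, then 14 with no filter, 10 with all 12 libraries, and 0 with the libraries summed, with or without S534A library 2. With 1 library left out it had 0 to 42 (10 without S534A library 1, 1 without S534A library 2, 34 without S534A library 3). Over all genes, those called lower numbered 336, then 674 with no filter, 430 with all 12 libraries and 70 with the libraries summed. Without S534A library 1, 2 or 3 they numbered 336, 229 and 949, and without S545A library 1, 988.

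TGFBR3 lost its unadjusted p under 0.05 with all 12 libraries (log2 fold change 0.26), with the libraries summed (0.29), with S534A library 2 also left out (0.23), and in 4 of 6 fits with 1 library left out, of 0.21 to 0.31. TIMP3 lost it without S545A library 3 (0.56, in a range of 0.45 to 0.79). ADAM8 changed sign to 0.0381 with voom, 0.0789 with quantile normalization, 0.0320 with the libraries summed and 0.52 with S534A library 2 also left out (-0.24 to 0.46 with 1 library left out). With S534A library 2 left out, ADAMTS9, EGR1 and ANGPTL4 turned to 0.0197, 0.0194 and 0.0257, and with the libraries summed as well to 0.18, 0.13 and 0.26. With 1 library left out they ranged from -1.81 to 0.0197, from -3.51 to 0.0194 and from -4.26 to 0.0257. The causes were not tested. The 30 genes named for no overlap and an unadjusted p under 0.05 in all 3 fits kept their direction in every setting run. Choosing genes with no overlap fixed this in advance for the fits with libraries left out or summed.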
